A study of Mus musculus with 6 samples.

Results

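The genes described are the 10 that divide arginine between arginase and nitric oxide synthase and carry ornithine on to the polyamines, namely Arg1, Arg2, Nos2, Ass1, Odc1, Oaz1, Azin1, Srm, Sms and Sat1. They were chosen by symbol, and all 10 were found among the 24822 gene rows of the deposited tables. RNA was sequenced from macrophages of the injured sciatic nerve of Macblue x Cx3cr1egfp/+ mice of strain C57BL/6, 14 days after chronic constriction injury (CCI). The resident group held EGFP+ cells and the recruited group ECFP+ cells, each positive for CD64 and CD11b and negative for SiglecF and Ly6G. Each group had 3 libraries, and each library came from about 400 cells of 3 pooled mice. Both groups came from injured nerves of mice carrying both reporters. No library came from an uninjured nerve, so the part of injury in a difference between them cannot be told. In these mice ECFP is driven by a modified Csf1r promoter that is active in blood monocytes and their recent progeny, and the EGFP knock-in replaces 1 of the Cx3cr1 alleles. The groups are therefore defined by reporters and not by tracing of single cells, and the sources used here do not give the age of the mice.

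Arginase cuts arginine into urea and ornithine, whereas inducible nitric oxide synthase turns the same amino acid into nitric oxide and citrulline. Ornithine decarboxylase makes putrescine from ornithine, and spermidine synthase and spermine synthase lengthen it with aminopropyl groups from decarboxylated S-adenosylmethionine. In mouse macrophages Arg1 is a classical response to type 2 cytokines and Nos2 a classical response to interferon gamma and bacterial products, and polyamines are needed for growth and for hypusination of the translation factor eIF5A.

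The site that makes antizyme a sensor of polyamines lies in the Oaz1 transcript. Ribosomes reach a stop codon early in the reading frame and, when polyamines are abundant, shift by 1 base and read on. The sequences are from the GENCODE M21 transcripts (GRCm38), 5′ to 3′ on the coding strand. Capitals mark the last codon of the first frame and that stop codon in Oaz1, in its paralog Oaz2 and in the processed copy Oaz1-ps, which was identical to Oaz1 in this window. The libraries count transcripts and do not read the shift.
Oaz1: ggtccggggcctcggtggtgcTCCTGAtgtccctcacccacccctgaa
Oaz2: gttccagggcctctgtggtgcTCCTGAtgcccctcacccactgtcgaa
Oaz1-ps: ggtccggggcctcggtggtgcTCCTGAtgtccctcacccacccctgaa

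Total expected counts ran from 16668691 to 27510960 per library, and 11436 to 13071 genes had a count. Replicates of the resident group varied more than those of the recruited group, with a biological coefficient of variation of 0.605 against 0.286. The summed level of 8 macrophage markers, led by Lyz2 and Cd68, was 39684 to 43364 FPKM in resident and 38374 to 49843 FPKM in recruited libraries. That sum is mostly Lyz2, and within the list C1qa, a complement chain, was 3.85 times higher in resident macrophages with an adjusted p of 0.00869, the only marker gene of any list past the threshold. FPKM, the deposited unit, is fragments scaled to transcript length and library size. Of 12 neutrophil genes, led by S100a8 and S100a9, Ngp and Mpo were at 0 in every library, and the summed level was 183 to 350 FPKM against 284 to 621 FPKM. Monocyte genes, led by Ccr2 and F13a1, summed to 456 to 755 against 503 to 969 FPKM. Within that list Ccr2 lay higher in every resident library, at 339, 212 and 294 FPKM against 166, 138 and 124 FPKM. Its log2 difference was -0.98 with an adjusted p of 0.0933. Of the 6 tested monocyte genes 4 had positive and 2 negative log2 differences. Dendritic cell genes, led by Cd209a and Ccr7, summed to 87.4 to 451 against 49.3 to 142 FPKM. That sum is mostly Cd209a, at 82.4, 236 and 441 FPKM in resident and 83.3, 129 and 43.6 FPKM in recruited libraries. Of the 4 tested dendritic cell genes 1 had a positive and 3 had negative log2 differences. Schwann cell genes, led by Pmp22 and Cnp, summed to 162 to 196 against 151 to 340 FPKM with Sox10 at 0, and fibroblast and perineurial genes, led by Slc2a1 and Dcn, to 68.1 to 104 against 104 to 115 FPKM with Pdgfra and Cldn1 at 0. That sum is mostly Slc2a1, and the other 4 tested genes of the list had negative log2 differences, Col3a1 -2.54, Col1a2 -3.15, Col1a1 -2.39 and Dcn -1.29. None passed the threshold, and Col3a1 and Col1a2 lay higher in every resident library in FPKM. Erythrocyte genes, led by Hbb-bs and Hba-a1, reached 745 FPKM in resident replicate 3 and 0 to 51.3 FPKM in the recruited libraries. Endothelial and mural genes, led by Acta2 and Pecam1, summed to at most 7.98 FPKM. T and NK cell genes (Klrb1c and Cd4 highest), B cell genes (Ms4a1 and Cd79a), mast cell and granulocyte genes (Kit and Ccr3) and adipocyte genes (Cfd and Adipoq) each summed to at most 3.16 FPKM.

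Arginase transcript in these macrophages was almost wholly Arg1, at a very high level in both groups, while Arg2, the mitochondrial isozyme, was far lower but about 4 times higher in the recruited than in the resident libraries. Nos2 was at or near 0 in 2 resident libraries and low in the other 4. The polyamine genes were read in all 6 libraries, and Oaz1, the antizyme that marks ornithine decarboxylase for breakdown, was lower in every recruited library. By the quasi-likelihood test of edgeR, none of the 10 genes reached the threshold, an adjusted p of 0.05. Over all 11354 tested genes 36 passed, 0.317%, of which 7 were higher in recruited and 29 higher in resident macrophages. An unadjusted p under 0.05 was reached by Arg2 (recruited higher) and Oaz1 (resident higher), against 1905 of all tested genes, 16.8%, with 8.13% higher in recruited and 8.65% higher in resident libraries. All 10 genes passed the filter on low counts. Their median log2 difference (recruited minus resident) was -0.08, with 4 positive and 6 negative, and the median over all tested genes was 0.01. The median size of the difference regardless of sign was 0.26 for the 10 genes and 0.36 for all tested genes. In bulk libraries, more RNA per cell and more cells that express a gene cannot be told apart.

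**Figure D1:**
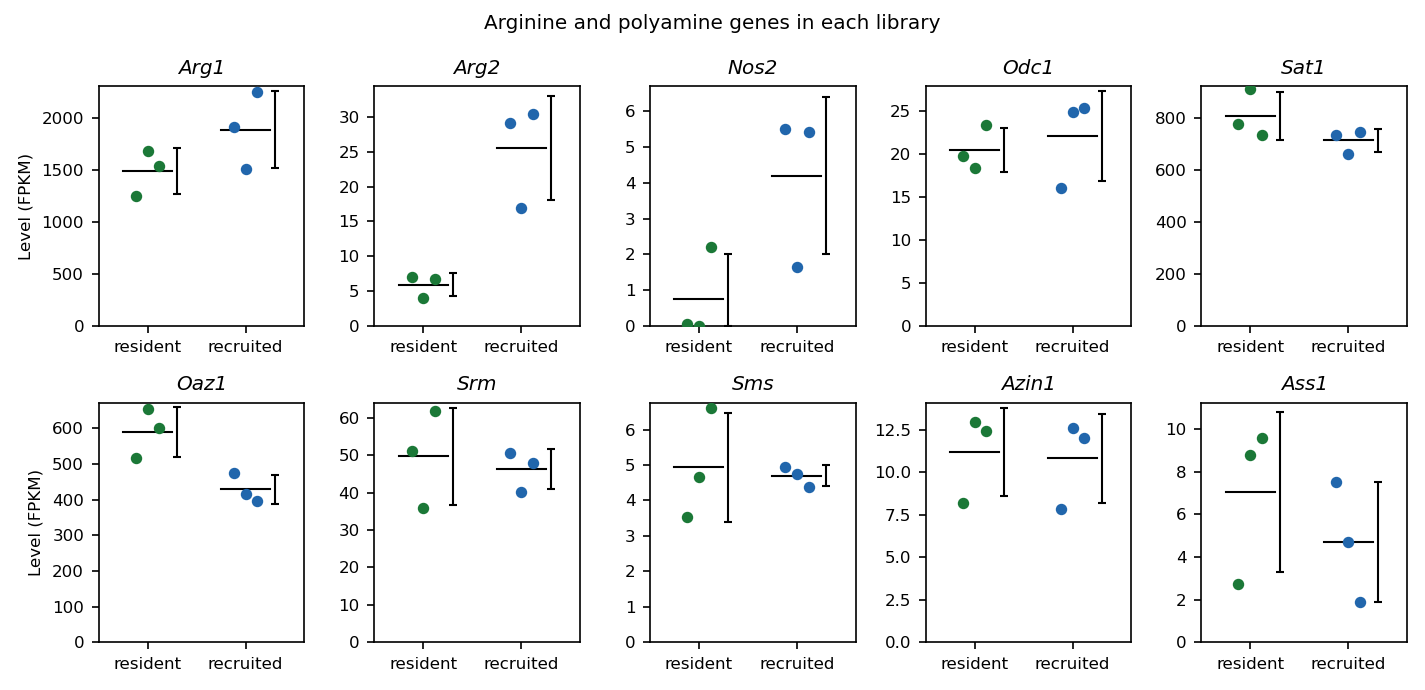
Level of each gene in FPKM, with 1 point for each of the 3 resident (green) and 3 recruited (blue) libraries, the group mean as a horizontal line and the SD as a bar cut at 0. Each panel has its own axis from 0. The groups are apart for Arg2 and Oaz1 and overlap for the other 8 genes.

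By mean level per length the order in resident macrophages was Arg1, Sat1, Oaz1, Srm, Odc1, Azin1, Ass1, Arg2, Sms and Nos2. In recruited macrophages the order was Arg1, Sat1, Oaz1, Srm, Arg2, Odc1, Azin1, Ass1, Sms and Nos2, so that Arg2 stood at place 8 in resident and at place 5 in recruited cells. The ranges over libraries of Arg1, Sat1, Oaz1 and Srm did not meet each other in either group. Among the resident libraries the ranges of Azin1 and Ass1 overlapped, as did those of Ass1, Arg2 and Sms. Among the recruited libraries those of Arg2 and Odc1 overlapped, as did those of Ass1, Sms and Nos2.

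Arg1 encodes the cytosolic arginase (chr10:24915221-24927484, minus strand, GRCm38 here and for all positions). Its level was 1245, 1680 and 1539 FPKM in resident replicates 1, 2 and 3, and 1906, 1509 and 2243 FPKM in recruited replicates 1, 2 and 3. These were between place 28 and place 59 among the 24822 genes of their library. The groups overlapped, since recruited replicate 2 lay below resident replicates 2 and 3. The means were 1488 ± 222 and 1886 ± 368 FPKM (SD, n = 3 each). Arg1 had a log2 difference of 0.32 ± 0.19 (SE), with a 95% interval of -0.11 to 0.75 and an adjusted p of 0.436.

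Arg2 encodes the mitochondrial arginase (chr12:79130777-79156301, plus strand). Over the coding sequence, 972 bases in Arg1 and 1065 in Arg2, the arginase genes were 64.9% identical. Its level was 6.99, 4.06 and 6.75 FPKM in resident replicates 1, 2 and 3, and 29.2, 16.9 and 30.4 FPKM in recruited replicates 1, 2 and 3. Every recruited library lay above every resident library, and replicate 2 was the lowest of each group. Of the 10 genes 2 had groups that did not overlap in FPKM, Arg2 and Oaz1, against 24.5% of all tested genes. The expected counts behind Arg2 were 238, 99.5 and 187 in resident and 596, 440 and 751 in recruited libraries. The log2 difference was 2.09 ± 0.34 (SE), with a 95% interval of 1.32 to 2.86, and the fold was 4.26. The unadjusted p of 0.000214 was the smallest of the 10 genes, with 39 tested genes below it, and the adjusted p was 0.0597. In DESeq2, which called 726 of 11759 genes (6.17%), Arg2 passed with an adjusted p of 4.21e-06 at a log2 difference of 2.09. Without resident replicate 1 it passed in edgeR, with 2.20 and an adjusted p of 0.0355, where 580 of 11598 genes passed. With any other single library left out it did not pass in edgeR, at adjusted p of 0.108 to 0.249. Over all 18 alternatives its log2 difference was 1.89 to 2.31, and it passed in 7.

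Arg2 shares 285 of its 1428 exonic bases with Vti1b, a SNARE gene on the opposite strand, and the sources used here do not say whether counting used strand. Vti1b was read at 139, 150 and 140 FPKM in resident and at 131, 125 and 151 FPKM in recruited libraries. Its groups overlapped, and its log2 difference was -0.09 with an adjusted p of 0.788. The expected counts of Arg2 were fractional in all 6 libraries, so part of its reads were divided with other rows, and what part was not tested. The summed level of the neutrophil genes overlapped between the groups, at 183, 191 and 350 FPKM in resident and 621, 284 and 370 FPKM in recruited libraries, while all 5 tested genes of that list had positive log2 differences and none passed the threshold. Of these, Mmp8 was read at 3.95, 1.28 and 0.020 FPKM in resident and 39.5, 27.5 and 14.9 FPKM in recruited libraries, and Mmp9 at 0.750, 2.22 and 0.220 FPKM against 4.54, 21.7 and 12.6 FPKM. Like Arg2, both lay higher in every recruited library, with unadjusted p of 0.00461 for Mmp8 and 0.00251 for Mmp9 and adjusted p of 0.138 and 0.117. S100a8, S100a9 and Csf3r overlapped between the groups. The other genes of the neutrophil list did not pass the filter on low counts. Of them, Retnlg was read at 0, 2.74 and 0 FPKM in resident and 0.29, 2.17 and 0.59 FPKM in recruited libraries. Cxcr2 and Elane were at 0 in every recruited library, Camp was at 0 in every resident library, and Ltf did not exceed 0.33 FPKM. The part of other cells in the Arg2 difference was not tested. Mmp8, Mmp9, Csf3r, Retnlg, Cxcr2, Elane, Camp and Ltf, and the collagen genes and C1qa given above, were named after their values were seen.

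Nos2 encodes inducible nitric oxide synthase (chr11:78920787-78960254, plus strand). Its expected counts were 5, 0 and 197 in resident replicates 1, 2 and 3, and 365, 140 and 431 in recruited replicates 1, 2 and 3. Levels were 0.050, 0 and 2.21 FPKM in resident and 5.51, 1.66 and 5.41 FPKM in recruited libraries. Resident replicate 3 lay above recruited replicate 2, so the groups overlapped. The 0 of resident replicate 2 allows up to 0.154 CPM (counts scaled to library size), the level of 3 counts there, and the 5 counts of resident replicate 1 have an exact Poisson interval of 1.62 to 11.7. Nos2 had a log2 difference of 2.44 ± 1.49 (SE), with a 95% interval of -0.96 to 5.84 and an adjusted p of 0.458. It rested on resident replicate 3, without which it was 7.31 with an adjusted p of 0.0811. The method mattered too, with 5.29 in limma-voom, 5.03 with the replicate block and 1.68 in limma on log2(FPKM + 1). Over the 17 alternatives that gave Nos2 a value, its log2 difference was 1.68 to 7.31.

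Read against each other per length, Arg1 exceeded Nos2 in every library. The ratio of Arg1 to Nos2 in FPKM was 24902 in resident replicate 1, which rests on 5 counts of Nos2, and 696 in resident replicate 3, and it cannot be given for resident replicate 2 with Nos2 at 0. In recruited replicates 1, 2 and 3 it was 346, 909 and 415. Recruited replicate 2 thus had a higher ratio than resident replicate 3. Arg2 made up 0.558%, 0.241% and 0.437% of the summed arginase FPKM in resident and 1.51%, 1.11% and 1.34% in recruited libraries. These shares did not overlap between the groups, and Arg1 made up the rest.

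**Figure D2:**
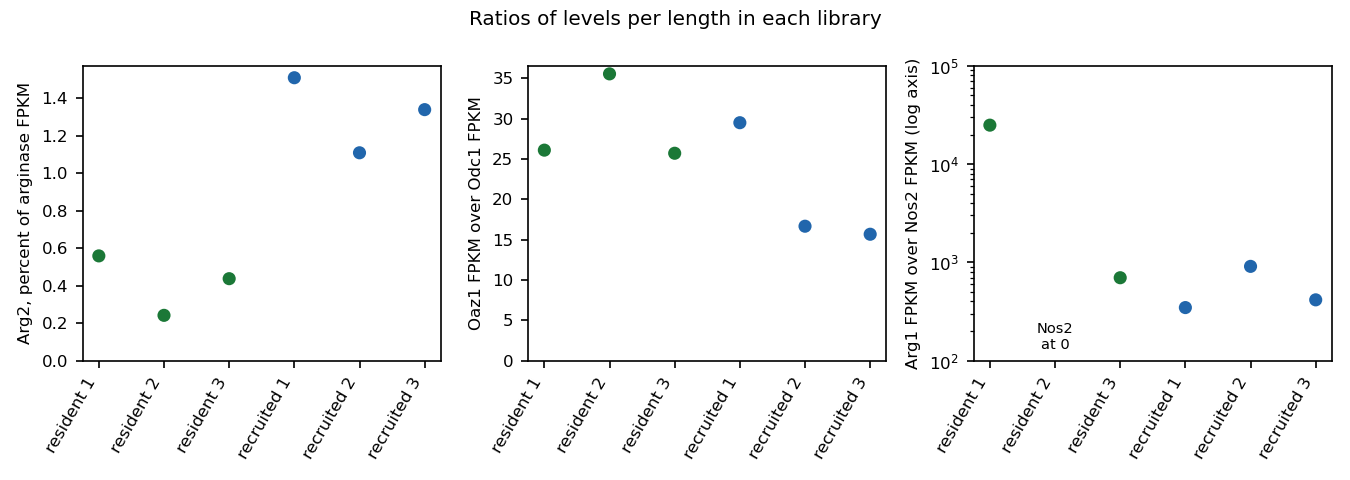
Arg2 as a percent of the summed FPKM of Arg1 and Arg2, the ratio of Oaz1 to Odc1 in FPKM and, on a log axis, the ratio of Arg1 to Nos2 in FPKM, with 1 point per library (green resident, blue recruited). The arginase shares lie at 0.241 to 0.558% in resident and 1.11 to 1.51% in recruited libraries, whereas both other ratios overlap between the groups.

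Ass1, argininosuccinate synthase, returns citrulline towards arginine (chr2:31470207-31520672, plus strand). Its level was 2.74, 8.79 and 9.59 FPKM in resident and 7.52, 4.72 and 1.89 FPKM in recruited libraries. The groups overlapped widely, with the lowest value in recruited replicate 3 and the next in resident replicate 1. The log2 difference was -0.61 ± 0.64 (SE), with a 95% interval of -2.08 to 0.85 and an adjusted p of 0.689. Its expected counts were fractional in all 6 libraries.

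Odc1, ornithine decarboxylase and the entry into the polyamines, lies at chr12:17544794-17551505 on the plus strand. Its level was 19.8, 18.4 and 23.4 FPKM in resident and 16.1, 24.9 and 25.4 FPKM in recruited libraries. The recruited libraries held both the lowest and the highest value. Odc1 had a log2 difference of 0.10, with a 95% interval of -0.41 to 0.62 and an adjusted p of 0.868.

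Oaz1, antizyme, binds ornithine decarboxylase and delivers it to the proteasome (chr10:80826656-80829290, plus strand). Its level was 516, 652 and 600 FPKM in resident and 475, 415 and 397 FPKM in recruited libraries. Every recruited library lay below every resident library, by the least margin between recruited replicate 1 and resident replicate 1. The means were 590 ± 68.9 and 429 ± 40.7 FPKM (SD, n = 3 each). The log2 difference was -0.48 ± 0.15 (SE), a level 1.40 times higher in resident macrophages with a 95% interval of 1.10 to 1.77. The unadjusted p was 0.0113 and the adjusted p 0.177. With a correction for transcript length in each library the difference was -0.19 with an adjusted p of 0.584, and without resident replicates 2 and 3 it was -0.22. It passed without resident replicate 1 (-0.59, adjusted p of 0.0493) and in DESeq2 (-0.48, adjusted p of 0.0418).

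The processed copy Oaz1-ps, shown above, differed from Oaz1 at 1 of 681 aligned bases. It was assigned 25.6, 0 and 0 FPKM in resident and 0, 25.01 and 4.90 FPKM in recruited libraries, so how much a library gave to the copy did not follow the groups. Oaz1 and Oaz1-ps summed came to 541, 652 and 600 FPKM in resident and 475, 440 and 402 FPKM in recruited libraries. The sums did not overlap either, with resident libraries higher.

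Azin1, the antizyme inhibitor, resembles ornithine decarboxylase and draws antizyme away from it (chr15:38487427-38519266, minus strand). The coding sequences of Odc1 and Azin1 were 62.3% identical. The level of Azin1 was 8.20, 12.9 and 12.4 FPKM in resident and 7.82, 12.6 and 12.01 FPKM in recruited libraries, with replicate 1 the lowest of each group. Azin1 had a log2 difference of -0.06, with a 95% interval of -0.67 to 0.55 and an adjusted p of 0.935. Azin1 shares 358 of 6256 exonic bases with the antisense gene Gm49077.

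Oaz1 stood far above its target per length. The ratio of Oaz1 to Odc1 in FPKM was 26.1, 35.5 and 25.7 in resident and 29.5, 16.6 and 15.7 in recruited libraries. Recruited replicates 2 and 3 lay below all resident libraries, but recruited replicate 1 lay among them. The ratio of Azin1 to Odc1 was 0.415 to 0.705 in resident and 0.473 to 0.506 in recruited libraries.

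Srm, spermidine synthase (chr4:148591503-148594993, plus strand), was read at 51.2, 35.9 and 61.8 FPKM in resident and at 50.5, 40.2 and 47.9 FPKM in recruited libraries. Sms, spermine synthase (chrX:157443855-157492287, minus strand), was read at 3.54, 4.65 and 6.60 FPKM in resident and at 4.95, 4.76 and 4.38 FPKM in recruited libraries. For both genes the recruited values lay within the resident range. The log2 difference of Srm was -0.12 (95% interval -0.63 to 0.39, adjusted p of 0.842) and that of Sms -0.10 (-0.80 to 0.61, adjusted p of 0.914). Per length Srm was 7.72 to 14.5 times Sms in resident and 8.44 to 10.9 times Sms in recruited libraries.

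Sat1 encodes the acetyltransferase that tags spermidine and spermine for export or return to putrescine (chrX:155213132-155216449, minus strand). Its level was 776, 911 and 734 FPKM in resident and 736, 663 and 744 FPKM in recruited libraries. The groups overlapped in FPKM, where resident replicate 3 lay below recruited replicates 1 and 3. In CPM scaled by TMM, which is not per length, they did not, at 742, 921 and 748 in resident and 721, 659 and 730 in recruited libraries. The log2 difference was -0.19 ± 0.13 (SE), with a 95% interval of -0.50 to 0.11 and an adjusted p of 0.511. Sat1 was 31.4 to 49.6 times Odc1 per length in resident and 26.6 to 45.7 times in recruited libraries.

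**Figure D3:**
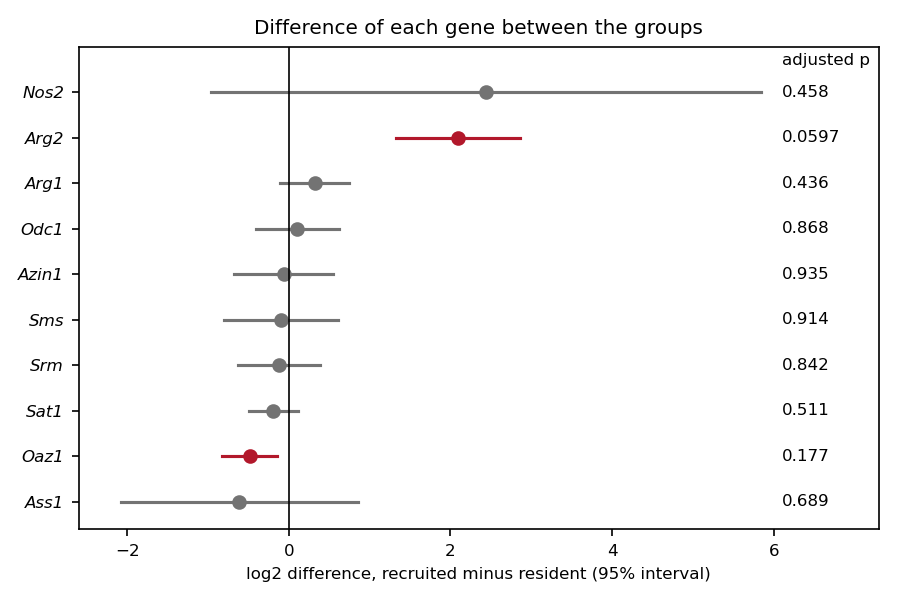
Log2 difference (recruited minus resident) of each gene from edgeR as a point, with its 95% interval as a line and the adjusted p over all tested genes at the right. Red marks an unadjusted p under 0.05, reached by Arg2 and Oaz1, and the widest interval is that of Nos2, from -0.96 to 5.84.

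The intervals bound what these libraries could show. For Odc1, Srm, Sat1, Sms and Azin1 the 95% intervals lay within 0.80 of 0 on the log2 scale, and for Ass1 and Nos2 they were much wider. A p that missed the threshold does not show that a gene was equal in both groups.

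The step that supplies aminopropyl groups could be read only as a sum. Amd1 and Amd2, copies of the gene for S-adenosylmethionine decarboxylase, differed at 1 of 1005 coding bases, shown in capitals in the window around it.
Amd1: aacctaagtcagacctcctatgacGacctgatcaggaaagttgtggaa
Amd2: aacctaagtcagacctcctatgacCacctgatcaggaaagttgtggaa
All or nearly all of the expected counts of a library fell on 1 copy. That copy was Amd1 in resident replicate 2 and recruited replicate 3, and Amd2 in the other 4 libraries. The 2 copies summed to 3.79, 3.60 and 5.09 FPKM in resident and 4.99, 4.44 and 3.07 FPKM in recruited libraries. The sums overlapped.

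Around the 10 genes, 79 genes in 10 lists by role were read, and 66 passed the filter. None of the 66 passed an adjusted p of 0.05. An unadjusted p under 0.05 was reached by 8 with recruited and 10 with resident libraries higher, against 8.13% and 8.65% of all tested genes, and these shares are the background of every such count by list. In FPKM 7 genes lay higher in every recruited and 14 higher in every resident library, or 21 of 66 against the 24.5% of all tested genes given above. Of the 66 log2 differences 31 were positive and 35 negative, with a median of -0.08. In DESeq2 9 of these genes passed, 6 higher in recruited (among them Slc3a2, Slc7a2, Gch1, Stat6 and Hif1a) and 3 higher in resident libraries (Gatm, Pparg and Nfkb1). Over all genes DESeq2 called 726 of 11759 (6.17%), and 44.1% of those calls were higher in recruited libraries. Hif1a was named after its values were seen.

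Arginine enters macrophages through cationic amino acid carriers, and of 6 tested genes 2 reached an unadjusted p under 0.05, both with recruited libraries higher, as did 8.13% of all tested genes. Slc3a2, the heavy chain shared by several amino acid carriers, was read at 218, 212 and 187 FPKM in resident and 303, 292 and 328 FPKM in recruited libraries, without overlap. Its log2 difference was 0.57 ± 0.12 (SE), with an adjusted p of 0.105. Slc7a2, the carrier of arginine into activated macrophages, was read at 2.12, 3.42 and 5.62 FPKM against 6.07, 8.95 and 10.7 FPKM, also without overlap. Its log2 difference was 1.19 ± 0.37 (SE), with an adjusted p of 0.183. Slc7a7, a light chain that pairs with Slc3a2, had a log2 difference of -0.02 and an adjusted p of 0.980.

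Of the urea cycle, the mitochondrial entry enzymes Otc and Cps1 were at 0 counts in all 6 libraries, which allows up to 0.179 CPM in a library, and 3 of 6 listed genes were tested, none with an unadjusted p under 0.05. Asl, argininosuccinate lyase, was read at 38.7, 33.6 and 47.6 FPKM against 33.7, 28.8 and 36.5 FPKM, with a log2 difference of -0.29 and an adjusted p of 0.482. Slc25a15, the mitochondrial ornithine carrier, had a log2 difference of 0.52 with a 95% interval of -1.03 to 2.06.

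Ornithine can also leave for proline and glutamate, and 9 of 10 genes of that route were tested, 1 with an unadjusted p under 0.05, against 16.8% of all tested genes. Oat, ornithine aminotransferase, had a log2 difference of 0.01 (95% interval -0.50 to 0.53). Glud1, glutamate dehydrogenase, had 0.19 and an adjusted p of 0.493, and Pycrl, a pyrroline-5-carboxylate reductase, -0.47 and 0.451.

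Nitric oxide synthase needs tetrahydrobiopterin, which Gch1 begins to make, Pts carries on and Qdpr regenerates. Of 9 tested genes 1 had an unadjusted p under 0.05 with recruited and 2 with resident libraries higher, against 16.8% of all tested genes in both directions together. Gch1 was read at 37.2, 34.7 and 40.1 FPKM in resident and 51.1, 50.2 and 51.2 FPKM in recruited libraries. It did not overlap, with a log2 difference of 0.44 and an adjusted p of 0.167. Pts was read at 70.4, 90.0 and 74.4 FPKM against 56.6, 56.6 and 65.1 FPKM, the other way round, with a log2 difference of -0.42 and an adjusted p of 0.278. Qdpr had -0.38 with an adjusted p of 0.336, and Nosip, a protein that binds endothelial nitric oxide synthase, -0.41 with an adjusted p of 0.231. In FPKM both were higher in each resident library than in any recruited library, and in CPM Qdpr overlapped. Nos1 had 1 expected count in resident replicate 1, 1 in recruited replicate 2 and none in the other 4 libraries, and Nos3 did not exceed 0.230 FPKM.

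Gatm takes arginine into creatine by way of guanidinoacetate, which Gamt methylates. Gatm was read at 28.8, 40.6 and 77.1 FPKM in resident and 11.0, 11.6 and 23.8 FPKM in recruited libraries, without overlap. Its log2 difference was -1.68 ± 0.43 (SE), the lowest of the 66 tested genes of these lists, with an adjusted p of 0.135. Gamt had -0.55 with an adjusted p of 0.415, also without overlap. Resident replicate 3, the highest for Gatm, was also the library with the most erythrocyte transcript, and its part in the Gatm value was not tested.

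Among the other enzymes of polyamine synthesis and breakdown, 5 of 8 were tested. Paox, which oxidises acetylated polyamines, was read at 14.2, 12.6 and 11.4 FPKM in resident and 8.66, 7.40 and 8.98 FPKM in recruited libraries, without overlap. Its log2 difference was -0.61, with an adjusted p of 0.285. Smox, spermine oxidase, was at 58.4, 74.3 and 52.4 FPKM against 60.5, 65.2 and 65.1 FPKM, with a log2 difference of 0.07 and an adjusted p of 0.869. Oaz2 had a log2 difference of 0.11 (95% interval -0.23 to 0.45), where Oaz1 had -0.48.

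Polyamine synthesis leaves methylthioadenosine, which a salvage route returns to methionine. All 9 genes of that list were tested, and 3 had an unadjusted p under 0.05, each with resident libraries higher, as had 8.65% of all tested genes. Mtap, the first enzyme of the route, was read at 14.9, 16.6 and 14.9 FPKM in resident and 10.8, 11.3 and 8.94 FPKM in recruited libraries. Its groups did not overlap, and its log2 difference was -0.59 with an adjusted p of 0.212. Apip, a dehydratase later in the route, had -0.62 with an adjusted p of 0.204 and did not overlap either. Mat2a and Mat2b, the subunits of the enzyme that makes S-adenosylmethionine, had -0.10 and -0.11, with adjusted p of 0.715 and 0.722.

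For uptake and release of polyamines, Atp13a2, a lysosomal polyamine exporter, was read at 54.4, 44.7 and 45.7 FPKM in resident and 55.8, 69.1 and 60.6 FPKM in recruited libraries. It did not overlap, and its log2 difference was 0.35 with an adjusted p of 0.255. Gpc1, a heparan sulfate carrier linked to polyamine uptake, had 1.03 (95% interval -0.06 to 2.12), with 47.5 FPKM in recruited replicate 2 and at most 20.3 FPKM elsewhere. Cav1 had 0.22 with an adjusted p of 0.628. Of the hypusine route, which uses spermidine to modify eIF5A, all 4 genes were tested and none had an unadjusted p under 0.05. Eif5a itself was read at 883, 982 and 1052 FPKM in resident and 887, 826 and 852 FPKM in recruited libraries, and its groups overlapped. Its log2 difference was -0.21 with an adjusted p of 0.469, and that of Dohh, which completes the modification, 0.16 with an adjusted p of 0.655.

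The factors that act on Arg1, Nos2 or Odc1 were all tested, and of 12 genes 3 had an unadjusted p under 0.05 in each direction, against 16.8% of all tested genes in both together. Stat6, which carries the signal of type 2 cytokines to Arg1, was read at 101, 60.2 and 69.8 FPKM in resident and 112, 119 and 120 FPKM in recruited libraries. It did not overlap, with a log2 difference of 0.60 and an adjusted p of 0.163. Cebpb, which binds the Arg1 enhancer, was at 1143, 937 and 938 FPKM against 1478, 1056 and 1383 FPKM and overlapped, with a log2 difference of 0.36 and an adjusted p of 0.278. Pparg, a nuclear receptor of alternative activation, was read at 45.5, 54.0 and 43.7 FPKM in resident and 22.4, 28.9 and 24.4 FPKM in recruited libraries. Without overlap, it had a log2 difference of -0.91 ± 0.18 (SE) and an adjusted p of 0.0988. Nfkb1 was read at 16.2, 14.7 and 20.2 FPKM against 9.28, 11.7 and 8.38 FPKM, with -0.80 and an adjusted p of 0.138.

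**Figure D4:**
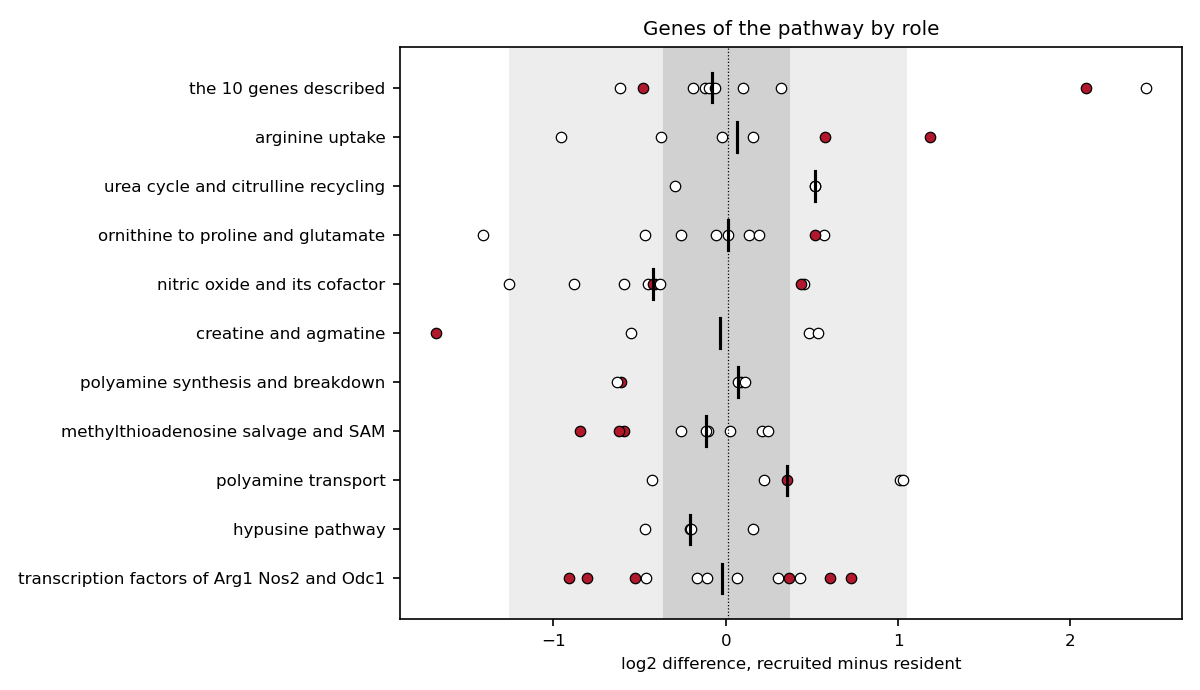
Log2 difference (recruited minus resident) of each tested gene, by list, with the list median as a vertical stroke and red for an unadjusted p under 0.05. The darker and lighter grey bands hold the middle 50% and 90% of all 11354 tested genes, from -0.36 to 0.36 and from -1.25 to 1.05. Arg2, Nos2 and Slc7a2 lie to the right of both bands, and Gatm, Prodh and Ddah2 to the left.

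By Pearson correlation of log2 CPM over the 6 libraries, among 7696 genes with a mean of at least 10 CPM, the genes most like Arg1 were 1110012L19Rik (0.978), Prelid1 (0.973), Ube2j2 (0.970), Gja1 (0.969) and Pdpn (0.968). The genes most like Nos2, among 7697, were Fastkd5 (0.993), Fam207a (0.993), Rab22a (0.990), Gm13363 (0.988) and Naa40 (0.987). These values are a description over 6 libraries that share their normalisation, and each gene was picked as the top of a long list. None of these most alike genes passed the threshold between the groups.

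**Figure D5:**
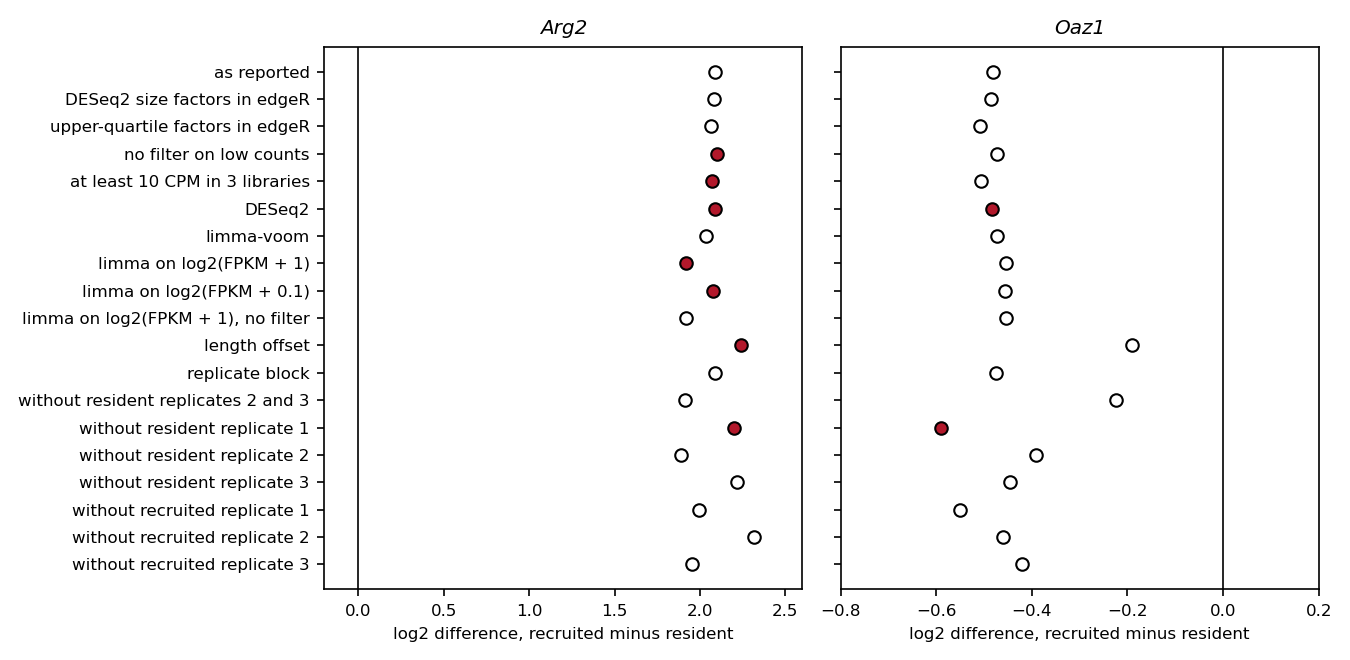
Log2 difference (recruited minus resident) of Arg2 and Oaz1 as reported and under each of 18 alternatives, with red for an adjusted p under 0.05. Arg2 stays between 1.89 and 2.31 and passes in 7 of 18 alternatives, and Oaz1 stays between -0.59 and -0.19 and passes in 2.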

How the data were processed

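RNA-seq of 6 libraries was analysed. Per the labels' protocols, cDNA was made with SMART-Seq v4 and 18 cycles of preamplification, without molecular identifiers, and sequenced in 2 runs, and the run of each library is not stated in the sources used here. The submitters' processing notes name FastQC, Trimmomatic, STAR 2.5.3a, RSEM 1.2.28, DESeq2, edgeR and mm10. The authors deposited expected counts per gene without normalization, and FPKM per gene, scaled to library size and transcript length. The sources used here do not give the annotation, and RSEM divides reads between near-identical genes.

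Expected counts were rounded to whole numbers. Of 24848 rows, 26 with a date as symbol (0.121 to 0.138% of a library) were left out. The test was edgeR 4.0.16 (R 4.3.3), quasi-likelihood, with TMM, filterByExpr, robust estimation and group as the only term, and Benjamini-Hochberg adjustment over all tested genes at 0.05. Per the series' design text, replicates of a group are separate pools of mice, and the sources used here do not say whether same-numbered libraries of both groups share mice. Tested on simulated data for recruited against resident (median of 11055 genes tested), the edgeR test called 26.4%, 65.7% and 80.9% of genes changed 2-, 4- and 8-fold. Each of 5 simulations changed 200 genes, and 41 calls over all 5 were of unchanged genes. The number of genes that truly differ in these data is not known, so these shares need not hold for them. The simulation gave both groups the same spread for each gene, whereas in these data resident replicates varied more than recruited ones. An exact permutation test of 3 against 3 libraries cannot go below 0.1 and was not used. Intervals of log2 differences are from the edgeR fit and include the spread between replicates, whereas the Poisson interval and the floors (3 counts, 0.105 to 0.179 CPM) cover counting error only.

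The 10 genes, the lists and the named genes (all 10, in each list any past the threshold, the 2 most abundant and the 2 with the smallest p, the 2 most abundant of each marker list and 5 most like Arg1 and Nos2) were chosen with earlier results of these data known. A gene that this rule also names is not reported here. Positions and sequences are from GENCODE M21 (GRCm38, equal to mm10). Alternatives were other scaling factors, filters, DESeq2 1.42.0, limma 3.58.1, a length offset, a replicate block and libraries left out.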

Additional observations from a re-analysis of the deposited data

How the results depend on the processing

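Against 36 genes called, no filter gave 58, at least 10 CPM in 3 libraries 73, DESeq2 726, limma on log2(FPKM + 1) 97, on log2(FPKM + 0.1) 63, limma on log2(FPKM + 1) without a filter 8, edgeR without resident replicates 2 and 3 11, and leaving out 1 library 0 to 580. The 0, without recruited replicate 2, had 1258 genes at an unadjusted p under 0.05, and the 580 came without resident replicate 1. Against 0 of the 10 genes called, 1 was called (Arg2) with no filter, at least 10 CPM, limma on log2(FPKM + 1) and on log2(FPKM + 0.1) and the length offset, 2 in DESeq2 (Arg2 and Oaz1), and 0 to 2 leaving out 1 library. Against 0 of 66 pathway genes, DESeq2 called 9, limma on log2(FPKM + 1) 1 (Pparg), the replicate block 1 (Gatm), and leaving out 1 library 0 to 5, with 5 without resident replicate 1. Over all genes DESeq2 called 726 of 11759 and limma on log2(FPKM + 1) 97 of 9847. The replicate block called 28 of 11354, and edgeR without resident replicate 1 called 580 of 11598.

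Directions that turned were all of uncalled genes, and the cause was not tested. With the length offset the log2 differences were -0.067 for Odc1, 0.052 for Sat1, 0.075 for Srm, -0.063 for Glud1, -0.064 for Oat and -0.023 for Atp13a2. Without resident replicates 2 and 3 they were 0.45 for Sms, 0.45 for Azin1, 0.83 for Ass1, -0.15 for Slc25a15, -0.14 for Oat, -0.016 for Oaz2 and -0.0020 for Cav1. Leaving out 1 library gave -0.30 to 0.10 for Srm, -0.30 to 0.19 for Sms, -0.26 to 0.13 for Azin1, -0.23 to 0.38 for Slc7a7, -0.22 to 0.19 for Oat and -0.022 to 0.23 for Smox. Slc7a7 was 0.00034 in limma-voom, 0.040 in limma on log2(FPKM + 1) with and without a filter, 0.043 on log2(FPKM + 0.1) and 0.039 with the replicate block. Oat was -0.017 with upper-quartile factors and -0.010 at 10 CPM. Some differences kept their direction but were smaller with the length offset, such as -0.26 for Apip, -0.12 for Pts, -0.23 for Gamt and 0.23 for Gch1. Others were larger with it, such as -0.76 for Mtap and -1.18 for Nfkb1.

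The deviations of same-numbered libraries from their group means correlated by 0.016, 0.063 and 0.049, and those of different-numbered libraries by -0.093 to 0.059. Deviations within so small a group are tied to each other, so these values cannot decide whether mice were shared. The numbers were not read as pairs, since the sources used here do not give them as such. With the replicate block 28 genes, 0 of the 10 and Gatm (-1.64, adjusted p of 0.0349) were called. Nos2 was below the filter at 10 CPM and had no p in DESeq2. Where 1 resident library was left, its spread was assumed to be like that of the other libraries. With 3 libraries a group and about 400 cells each, the interval of Nos2, from -0.96 to 5.84, was too wide to read a difference. Its expected counts were 5, 0 and 197 in resident libraries, with an SE of 1.49. Arg2, at 238, 99.5 and 187 counts there, had an SE of 0.34. What made the interval of Nos2 wide was not tested.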
